A study of Mus musculus with 50 samples.

Results

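The libraries described here were the 2 constitutive Hdac1/2 knockouts sampled at 2 weeks of age and the 4 Cre-negative controls of the same age. They were chosen by the names of their columns in the count table and made up 6 of the 50 RNA-seq libraries of the series. All 6 came from mouse microglia sorted from the brain of untreated, perfused animals aged 14 days with the genotype HDAC1/2-loxP/loxP, so controls also carried the loxP sites at both genes. The knockouts, numbered 80 and 89, carried CX3CR1-Cre in addition, and the controls, numbered 77, 78, 81 and 83, did not. An effect of losing the 2 genes and an effect of carrying Cre therefore cannot be told apart. The labels name neither the surface markers of the sort nor the deleted exons, and they do not state that each number is a separate animal, so p-values measure the spread between these samples. Where the effect was compared with others of the series, the inducible model at 2 weeks (HDAC1/2-loxP/loxP with CX3CR1-CreERT2, and Cre-negative controls, all from dams given tamoxifen) had 4 knockouts and 4 controls, and the constitutive model had 3 knockouts and 4 controls at birth and again at 6 weeks.

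HDAC1 and HDAC2 are closely related class I histone deacetylases that remove acetyl groups from histone tails. They work as the catalytic part of large complexes, among them SIN3, NuRD, CoREST and MiDAC, which are known mostly for holding genes silent, and the pair can partly stand in for each other. Microglia are the resident macrophages of the brain. In the weeks after birth they stop dividing and take on a homeostatic program that depends on the factor Sall1 and on TGF-beta signals. Cx3cr1, whose promoter drives the Cre, is also active in monocytes and in the macrophages of the brain's borders.

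Between 12307658 and 22605783 counts were assigned to genes in each of the 6 libraries (11050277 to 29651179 in all 50). The 2 knockout libraries were less alike than any pair of controls. A chi-square statistic per gene between libraries was 99.2 for the knockouts, against 9.27 to 19.5 for the 6 pairs of controls, and Pearson's r across genes was 0.989 against 0.994 to 0.995. By the counts of X- and Y-linked genes both knockouts and controls 78, 81 and 83 were male and control 77 was female. With control 77 left out, 3144 of the genes that rose and 2157 of those that fell were also called. Marker genes of other myeloid cells moved with the groups, and a list of neutrophil markers took 1.92% of all counts in knockout 80 and 5.46% in knockout 89. The part of these RNAs in the other results was not tested, and each result is given below with the values of both knockouts.

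Of 15017 genes tested, 3658 rose in the knockouts (24.4%) and 2666 fell (17.8%) at an adjusted p under 0.05 in edgeR's quasi-likelihood test. These shares are the background for every count of list members below. List members with too few counts were not tested, and a member that passed the filter only through high counts in the knockouts had to differ, so these counts are descriptions. The knockouts lay beyond all 4 controls for 3638 of the rises and 2631 of the falls, and 884 rises and 311 falls were at least 8-fold. Levels are given as CPM, counts scaled to an equal library total, and changes as the log2 of knockout over control after TMM scaling, with ± giving the standard error. The median change of all genes tested was 0.00. Among genes with over 100 CPM in the controls, 39.0% fell and 16.2% rose, while among genes of 10 to 100 CPM 17.5% fell and 26.1% rose. Protein-coding genes that fell spanned a median of 35.6 kb of the genome, those that rose 20.2 kb and those not called 23.1 kb.

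The targeted genes were not called, and the 2 knockouts differed in them. Hdac1 (GRCm38 chromosome 4, 129516104 to 129542713, minus strand) stood at 17.9, 19.0, 18.9 and 18.3 CPM in controls 77, 78, 81 and 83, and at 9.66 CPM in knockout 80 and 15.1 CPM in knockout 89. Both knockouts lay below every control, and the log2 change was -0.56 ± 0.24 (edgeR, adjusted p = 0.0894). Hdac2 (chromosome 10, 36974544 to 37001889, plus strand) stood at 67.3, 71.3, 59.8 and 69.6 CPM in the controls, at 41.0 CPM in knockout 80 and at 70.1 CPM in knockout 89. Knockout 89 lay among the controls for Hdac2, and the log2 change was -0.24 ± 0.23 (adjusted p = 0.433). With knockout 89 left out the log2 changes were -1.04 for Hdac1 and -0.81 for Hdac2. With knockout 80 left out they stood at -0.20 and 0.16. Each of these fits holds 1 knockout and so no spread between knockouts. Reads from exons that remain after deletion are counted too, so these levels check the labels only in part.

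The gene of the Cre driver fell. Cx3cr1 (chromosome 9, 119901616 to 120069879, minus strand), the fractalkine receptor of microglia, went from 7101, 7273, 6583 and 6467 CPM in the controls to 2233 CPM in knockout 80 and 1762 CPM in knockout 89. The groups were far apart, with a log2 change of -1.79 ± 0.12 (edgeR, adjusted p = 8.66e-06). How the Cre was placed at Cx3cr1 is not given in the labels, and a change made by the Cre allele itself cannot be told apart from one that followed the deletions.

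Of 16 other histone deacetylases, 4 rose and 2 fell, so rises were about as frequent as over all genes tested and falls somewhat less frequent. Hdac9, a class II deacetylase that binds MEF2 factors, went from 42.4, 33.0, 36.9 and 37.5 CPM to 119 and 112 CPM in knockouts 80 and 89, a log2 change of 1.62 ± 0.13. Both knockouts held about the same level, well above all controls. Hdac10, a polyamine deacetylase, went from 25.7, 28.3, 23.7 and 30.3 CPM to 12.2 and 11.3 CPM (-1.20 ± 0.18). Hdac4 (0.79 ± 0.17), Hdac7 (2.20 ± 0.58) and Sirt1 (0.45 ± 0.15) also rose and Hdac11 (-1.35 ± 0.34) fell, and without knockout 89 only 2 of the 4 rises were called. Hdac3, the catalytic subunit of the NCoR and SMRT complexes, and Hdac8, the 2 remaining class I enzymes, were not called, at 0.23 ± 0.12 and -0.15 ± 0.23.

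Among 27 tested subunits of the complexes that hold HDAC1 and HDAC2, 7 rose (25.9%) and 1 fell (3.7%). The share of rises was near the 24.4% over all genes tested. Trerf1, a subunit of MiDAC-type complexes, went from 0.407, 0.633, 1.07 and 1.30 CPM to 20.4 and 21.5 CPM (4.66 ± 0.38). Sap30 of the SIN3 complex (1.88 ± 0.20), Mbd2 (1.65 ± 0.20), Mta3 (1.37 ± 0.17) and Rbbp7 (0.84 ± 0.12) of NuRD, the CoREST gene Rcor3 (0.87 ± 0.19) and Sin3b (0.33 ± 0.12) rose as well, and the NuRD gene Gatad2b fell (-0.36 ± 0.12). The core genes Chd4, Mta2, Rbbp4, Sin3a, Rcor1 and Kdm1a were not called, with log2 changes between -0.27 and 0.21.

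The homeostatic program of microglia was lower across nearly the whole list. Of 40 homeostatic genes 37 fell and none rose, with a median log2 change of -1.71. Their summed level was 109400 to 119900 CPM in the controls, 41770 CPM in knockout 80 and 27240 CPM in knockout 89, so the list held 0.305 times its control level on average. In bulk RNA fewer cells of a type and less RNA per cell cannot be told apart.

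The purinergic receptor gene P2ry12, which lets microglia sense nucleotides from damaged cells, went from 11850, 10700, 14010 and 10440 CPM to 1735 CPM in knockout 80 and 602 CPM in knockout 89. It fell by 3.38 ± 0.41 on the log2 scale (edgeR, adjusted p = 0.000721), and both knockouts lay far below every control. Its relative P2ry13 (-1.71 ± 0.18) and Gpr34 (-1.59 ± 0.36) fell too, whereas P2ry6, which takes part in phagocytosis, overlapped between the groups (-0.38 ± 0.15). Tmem119, a surface protein used to mark microglia, went from 2456, 2943, 2882 and 2665 CPM to 926 and 853 CPM (-1.63 ± 0.13). Here the 2 knockouts were close together.

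Further homeostatic genes fell by very different amounts. Sparc, a matrix-binding protein, went from 9206, 9443, 10480 and 9139 CPM to 961 CPM in knockout 80 and 125 CPM in knockout 89 (-4.22 ± 0.91). Adgrg1, an adhesion G protein-coupled receptor, went from 1064, 1146, 1063 and 1049 CPM to 66.7 and 16.4 CPM (-4.76 ± 0.59). Both genes were several times lower in knockout 89 than in knockout 80. Cst3, a protease inhibitor, went from 17430, 15040, 16010 and 13070 CPM to 4338 and 2750 CPM (-2.14 ± 0.18). Crybb1, a crystallin of young microglia (-3.82 ± 0.51), Selplg, the P-selectin ligand (-2.32 ± 0.15), and Siglech, a lectin of microglia (-1.94 ± 0.39), fell as well. The smallest changes among the 37 were those of Gpr84 (-0.50 ± 0.12) and C1qa (-0.46 ± 0.11).

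**Figure D1:**
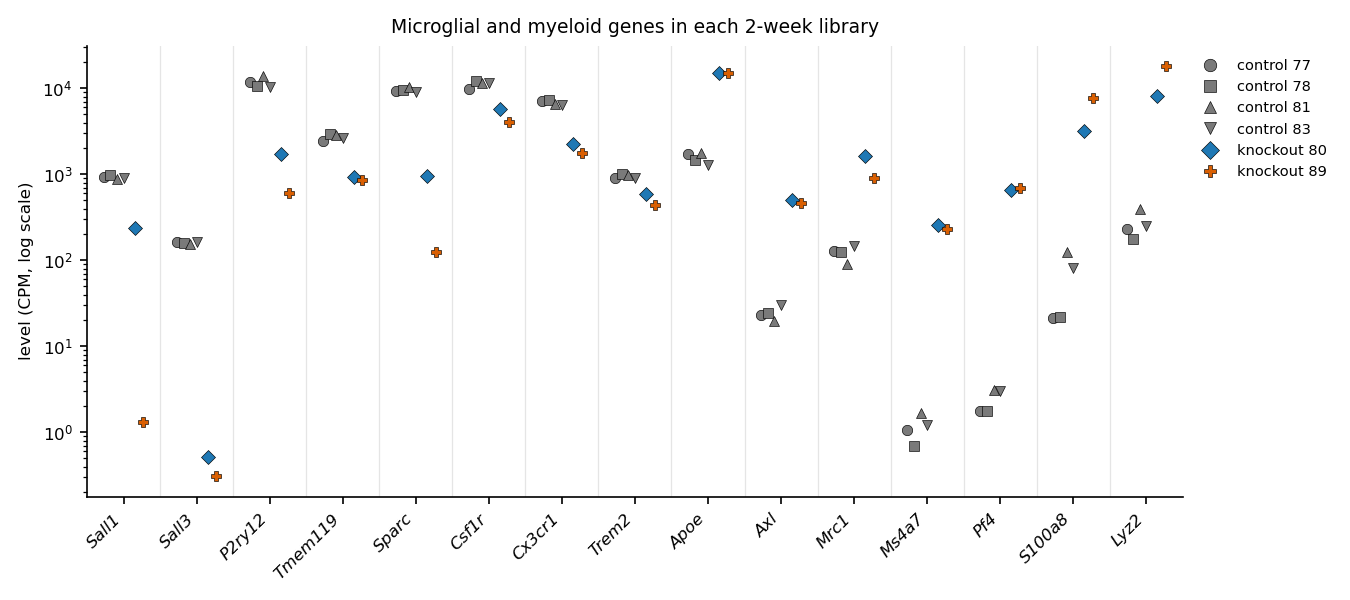
CPM on a log axis of microglial, activation and other myeloid genes in each of the 6 libraries, with controls and knockouts marked separately. P2ry12, Tmem119, Sparc, Csf1r and Cx3cr1 lie lower in both knockouts, Apoe, Axl, Mrc1, Ms4a7, Pf4, S100a8 and Lyz2 lie higher, and Sall1 and Sparc separate the 2 knockouts from each other.

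Both Spalt factor genes of microglia were lower. Sall3 stood at 163, 158, 154 and 161 CPM in the controls and at 0.515 and 0.310 CPM in the knockouts, a fall to near 0 in both. Sall1, which holds microglia apart from other macrophages, stood at 920, 973, 879 and 916 CPM in the controls, at 236 CPM in knockout 80 and at 1.33 CPM in knockout 89. Both knockouts were below every control, but they differed so much from each other that the gene was not called (-3.06 ± 1.8, edgeR, adjusted p = 0.249). Taken one at a time against the controls, the log2 change was -2.06 for knockout 80 and -9.34 for knockout 89. A fit with 1 knockout holds no spread between knockouts, so it cannot stand in for the missing call. Nav3, a microtubule-guiding protein, showed the same form, with 360 to 437 CPM in the controls, 68.1 CPM in knockout 80 and 4.11 CPM in knockout 89 (-3.57 ± 1.17, adjusted p = 0.0727).

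Of 49 tested transcription factors of macrophages and microglia 15 rose and 17 fell, so this list moved both ways, with a median of -0.08. Egr1, an early response factor, went from 324, 387, 452 and 438 CPM to 101 and 49.2 CPM (-2.45 ± 0.26), and Mef2a (-0.84 ± 0.15), Mef2c (-0.63 ± 0.18), Smad3 (-1.35 ± 0.16) and Ets1 (-1.26 ± 0.15) fell too. Some general macrophage factors were not called. Irf8 was 411 to 444 CPM in the controls and 395 and 420 CPM in the knockouts (-0.08 ± 0.12), Runx1 stood at -0.21 ± 0.12, and Spi1, which encodes PU.1, rose by 0.50 ± 0.17 but was not called without knockout 89 or without any 1 of the controls.

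Several of the factors that rose were near absent from the controls. Bhlhe40, a helix-loop-helix repressor, went from 0, 0.288, 0.690 and 0.488 CPM to 26.2 and 61.6 CPM (7.01 ± 0.70). Nr4a1, an orphan nuclear receptor of patrolling monocytes, went from 1.17, 0.633, 0.439 and 0.731 CPM to 21.9 and 56.4 CPM (5.73 ± 0.47), and Id1 from 1.22, 0.518, 0.502 and 0.731 CPM to 7.26 and 22 CPM (4.32 ± 0.52). Each of the 3 was higher in knockout 89. Ikzf3, a lymphoid Ikaros factor, had no count in the controls and stood at 12.9 and 9.42 CPM, at least 238-fold higher when the controls are set to 3 counts over the group. Irf7 (2.97 ± 0.44), Klf4 (1.65 ± 0.32), Klf2 (1.52 ± 0.30) and Cebpb (1.44 ± 0.24) also rose.

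TGF-beta holds the homeostatic program, and 8 of its 20 tested pathway genes fell and 2 rose (median -0.31). The receptor gene Tgfbr1 went from 2398, 2465, 2807 and 2600 CPM to 1412 and 796 CPM (-1.25 ± 0.18), while Tgfbr2 was not called (-0.30 ± 0.14). The signal transducer Smad3 went from 109, 121, 111 and 119 CPM to 40.0 and 49.7 CPM, and the feedback inhibitor Smad7 (-1.61 ± 0.20) and Skil (-0.89 ± 0.15), both targets of the pathway, fell with Smad1 (-0.82 ± 0.12) and Smad5 (-0.78 ± 0.13). Smad2 and Smad4 were not called, at 0.13 ± 0.13 and -0.08 ± 0.17. Tgfbi, a matrix protein named for its induction by TGF-beta, rose from 74.8, 74.1, 61.3 and 75.3 CPM to 577 and 757 CPM (3.24 ± 0.16).

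Csf1r and Trem2 were lower, while other genes of their signalling list moved both ways. Csf1r, whose ligands microglia need to survive, went from 9693, 12010, 11410 and 11460 CPM to 5705 and 4069 CPM (-1.21 ± 0.15), and Trem2, a lipid-sensing receptor, from 902, 1010, 978 and 910 CPM to 585 and 438 CPM (-0.91 ± 0.13). Tyrobp, the adaptor of Trem2, was not called (0.35 ± 0.15). Of the 17 tested genes of this list 6 rose and 5 fell. The rises were Trem1, a receptor of neutrophils and monocytes, from 0, 0.576, 1.07 and 0.894 CPM to 40.5 and 76.8 CPM (6.63 ± 0.71), with Trem3, Kit, Csf2ra, Hcst and Flt3.

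Among named genes with at least 10 CPM in one group, the 15 largest falls were led by Hspb3, a small heat-shock protein gene at 26.0, 21.3, 25.2 and 23.5 CPM in the controls. It had no count in knockout 80 and 0.0442 CPM in knockout 89, too few for a fold. Sall3 fell 389-fold, Mrc2, a collagen-uptake receptor gene, 171-fold, and the factor gene Ebf3 136-fold. Kcnma1, a calcium-activated potassium channel (91.8-fold), Cmya5 (87.7-fold) and Myo18b (81.7-fold), both known from muscle, Liph, a phospholipase (70.5-fold), Naalad2, a peptidase (68.2-fold), and Csmd3 (58.5-fold) came next. Apob, the apolipoprotein of low-density lipoprotein, went from 29.9, 21.9, 35.0 and 25.9 CPM to 0.858 and 0.177 CPM (57.8-fold). B3galt5, a glycosyltransferase (56-fold), Rxfp1, the relaxin receptor (54.9-fold), Jam2, a junction adhesion molecule (46.1-fold), and Adamts16, a metalloprotease (37.4-fold), completed the set. The 15 were chosen by fitted log2 change among called genes whose groups do not overlap. All but B3galt5 and Hspb3 were lower in knockout 89.

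**Figure D2:**
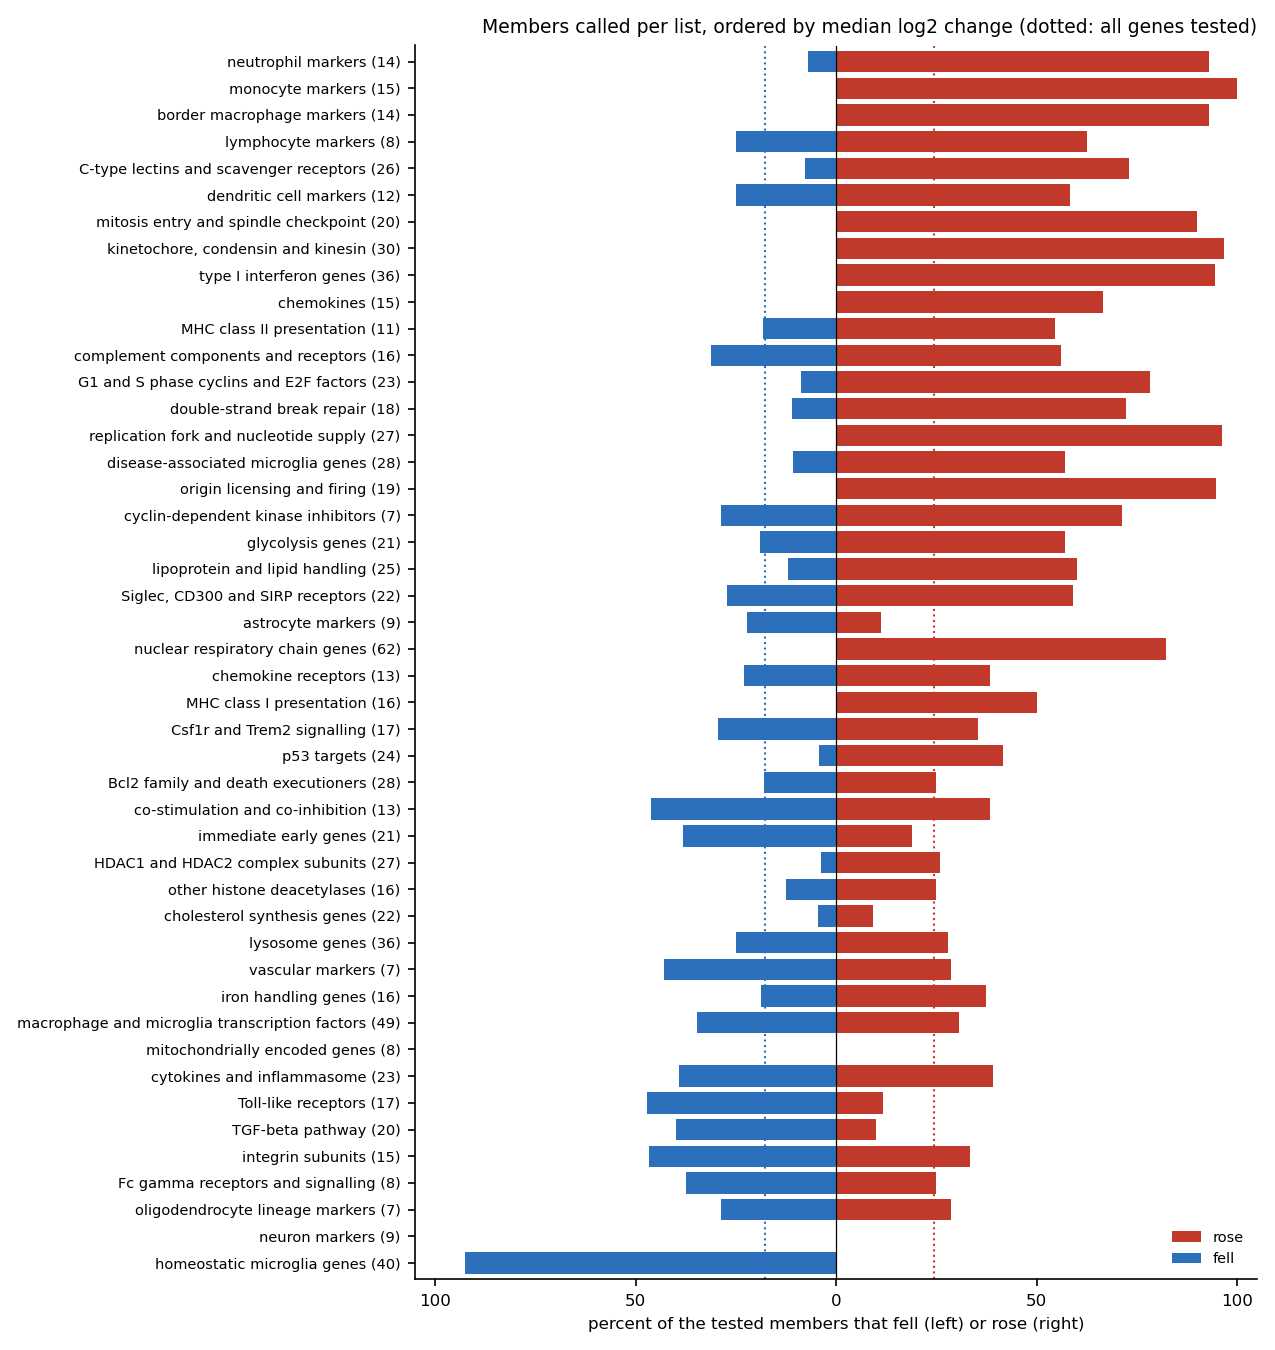
Percent of tested members of each gene list that fell (left) and rose (right) in the knockouts, for lists with at least 7 members tested, ordered by median log2 change. Dotted lines mark the shares over all genes, 17.8% fell and 24.4% rose, and the homeostatic list with 92.5% fallen has the lowest median, while the neutrophil and monocyte lists with 92.9% and 100% risen have the highest.

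Most marker genes of other myeloid cells were higher in the knockouts. Of 14 neutrophil markers 13 rose and 1 fell, and all 15 tested monocyte markers (of 16 listed) rose, as did 13 of 14 markers of border macrophages. The neutrophil list summed to 470 to 1218 CPM in the controls, 19160 CPM in knockout 80 and 54640 CPM in knockout 89, and its count dropped to 6 rises when knockout 89 was left out. The monocyte list summed to 21.9 to 88.1 CPM in the controls, 2300 CPM in knockout 80 and 5457 CPM in knockout 89. The border macrophage list summed to 613 to 831 CPM in the controls and, in contrast to the other lists, was no higher in knockout 89 (3493 CPM) than in knockout 80 (3836 CPM). The libraries are labelled as microglia, and in bulk counts other myeloid cells among the sorted cells and microglia that hold these RNAs cannot be told apart.

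The alarmin gene S100a8 of neutrophils stood at 21.4, 21.6, 124 and 81.7 CPM in the controls, at 3226 CPM in knockout 80 and at 7730 CPM in knockout 89 (6.49 ± 1.08). The granule gene Ngp stood at 28.4, 33.4, 238 and 146 CPM in the controls and at 5078 and 15710 CPM in the knockouts (6.58 ± 1.26), and the neutrophil surface gene Ly6g at 0.509, 0.115, 1.69 and 2.11 CPM and at 51.4 and 129 CPM (6.48 ± 0.83). Controls 81 and 83 held more S100a8 and Ngp than controls 77 and 78, and every control lay far below both knockouts. Without knockout 89 Ngp was not called. Csf3r, the granulocyte colony-stimulating factor receptor, was the one neutrophil marker that fell (-0.67 ± 0.18), and it stood at 329 to 402 CPM in the controls. Among monocyte genes the chemokine receptor Ccr2 went from 8.09, 7.94, 12.4 and 10.2 CPM to 272 and 540 CPM (5.42 ± 0.35), and the fibronectin gene Fn1 from 0.203, 0.576, 3.14 and 2.76 CPM to 405 and 838 CPM (8.65 ± 0.97).

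The leading border macrophage genes rose strongly in both knockouts. Ms4a7, a membrane protein of these macrophages, stood at 1.07, 0.691, 1.69 and 1.22 CPM in the controls and at 259 and 229 CPM in the knockouts (7.71 ± 0.23, edgeR, adjusted p = 1.07e-07). Pf4, a chemokine gene, went from 1.78, 1.78, 3.14 and 3.01 CPM to 652 and 697 CPM (8.14 ± 0.25, adjusted p = 1.97e-07). The mannose receptor gene Mrc1 was already clear in the controls, at 127, 125, 90.9 and 149 CPM, and stood at 1631 and 898 CPM in the knockouts (3.34 ± 0.21, adjusted p = 9.77e-06). Cd36 (7.02 ± 0.40), Clec4n (7.56 ± 0.52), Folr2 (5.72 ± 0.42), Cd163 (3.68 ± 0.32) and Lyve1 (3.79 ± 0.35) rose as well, and Stab1 was not called (0.05 ± 0.14).

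Lists of other cells were small or moved both ways. Of 12 tested dendritic cell markers (of 16 listed) 7 rose and 3 fell, of 8 lymphocyte markers (of 18 listed) 5 rose and 2 fell, and all 3 tested mast cell and basophil markers (of 11 listed) rose. Without knockout 89 the filter kept 15 lymphocyte markers in place of 8, so a count from that fit cannot be set beside this one. Hdc, which makes histamine, was 0.230 to 1.76 CPM in the controls and 28.2 and 85.6 CPM in the knockouts. Of 9 tested neuron markers (of 18 listed) none was called, and the list summed to 7.93 to 12.9 CPM in the controls and 9.38 and 7.65 CPM in the knockouts. Of 9 astrocyte markers 1 rose and 2 fell, of 7 oligodendrocyte markers 2 rose and 2 fell, of 7 vascular markers 2 rose and 3 fell, and of 4 erythroid markers 1 fell. Slc1a3, a glutamate transporter on the astrocyte list that microglia also hold, went from 211, 206, 245 and 214 CPM to 16.9 and 4.47 CPM (-4.42 ± 0.51). Pecam1 (-2.77 ± 0.16) and Cdh5 (-4.54 ± 0.62) on the vascular list fell likewise.

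**Figure D3:**
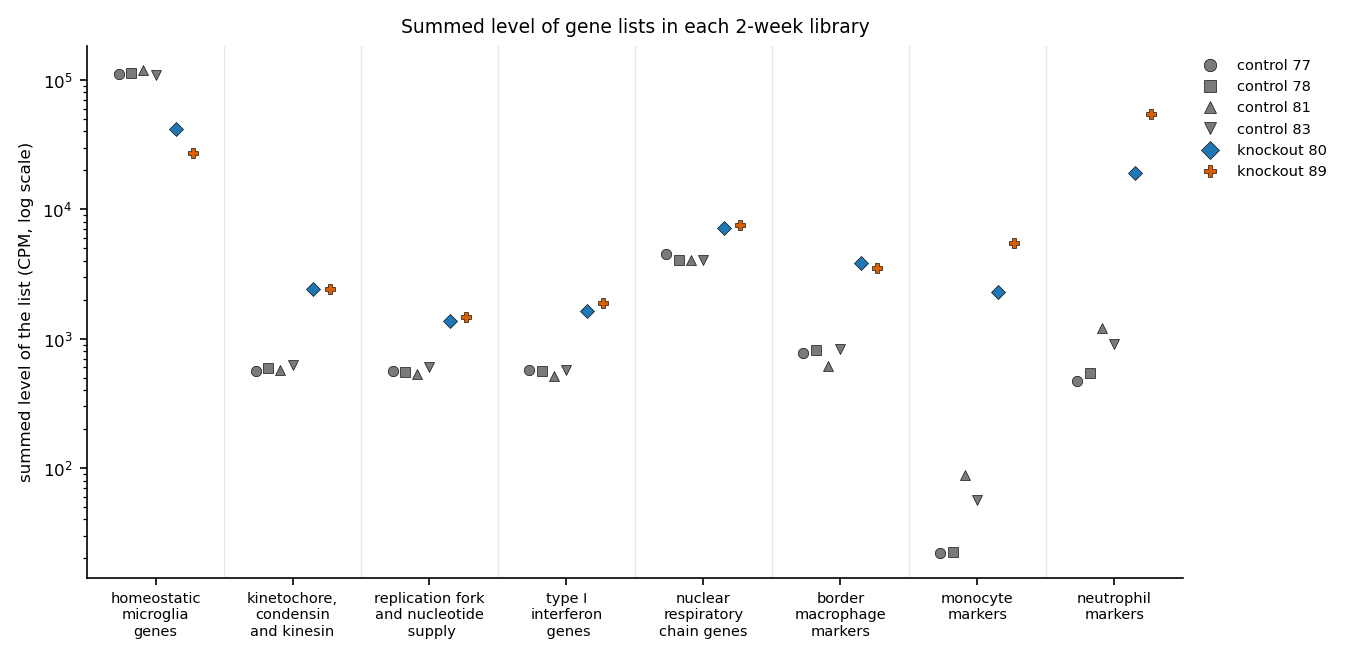
Summed CPM on a log axis of 8 gene lists in each of the 6 libraries. The homeostatic sum is lower in both knockouts (41770 and 27240 CPM against 109400 to 119900), the neutrophil and monocyte sums are highest in knockout 89, and the kinetochore sum is the same in both knockouts (2420 and 2408 CPM).

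Measured per gene length, the most abundant genes of the libraries changed places. As RPKM, which divides CPM by the exon length in kilobases, Cst3 held rank 1 in the control mean at 12160 RPKM and rank 10 in the knockout mean at 2799 RPKM. S100a9, at rank 202 in the controls (155 RPKM), came first in the knockouts (13810 RPKM), and Lyz2, the lysozyme gene of macrophages and neutrophils, went from 207 to 10400 RPKM. Apoe went from 734 to 7110 RPKM, while P2ry12 went from 4615 to 459 RPKM and Sparc from 2841 to 161 RPKM. C1qb (5769 to 4119 RPKM), Ctss (4555 to 3846 RPKM) and Tmsb4x (3687 to 6607 RPKM) were among the 8 most abundant genes in both groups.

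The 15 largest rises by fitted log2 change started from no or very few counts in the controls, and 77 called genes had none at all. The fitted change of such genes depends on the value set in place of 0, so their order is not one of size, and genes with more control counts, such as Fn1 (401-fold) and Pf4 (282-fold), can exceed the lower limits given here. Of those, Sirpb1c, a signal-regulatory receptor gene, stood at 16.8 and 31.7 CPM in knockouts 80 and 89, at least 549-fold higher when the controls are set to 3 counts over the group. On the same scale Cd40, the co-stimulatory receptor gene (14.4 and 24.9 CPM), was at least 442-fold higher, Emp1 (27.7 and 13.5 CPM) at least 428-fold, and Cd209a, a lectin of monocyte-derived dendritic cells (21.8 and 8.58 CPM), at least 313-fold. Aqp9, a glycerol channel of leukocytes, was at least 310-fold higher, Ms4a8a 241-fold, Arhgef37 237-fold and the monocyte gene Cd300e 234-fold, also as lower limits. Rara, a retinoic acid receptor gene, had counts in control 83 alone (0.325 CPM) and stood at 25.2 and 49.5 CPM, 550.2-fold higher. Ifi203, an interferon-inducible gene, went from 0.102, 0, 0.377 and 0.0813 CPM to 79.5 and 78.7 CPM, 544-fold higher, and shares exon bases with Mndal, so reads of the 2 genes can be mixed. Cmah (32.0 and 54.2 CPM), Pdpn (9.32 and 18.1 CPM), Ear6 (20.8 and 40.3 CPM) and Mefv (10.1 and 26.9 CPM) had 1 to 3 counts in the controls and are given without a fold. Of the 15, Emp1, Cd209a, Ikzf3 and Ifi203 were higher in knockout 80, and the others in knockout 89.

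Genes of cell division were higher in both knockouts. Origin licensing genes rose in 18 of 19, replication fork and nucleotide supply genes in 26 of 27, cyclins and E2F factors of G1 and S phase in 18 of 23 with 2 falls, mitosis entry genes in 18 of 20, and kinetochore, condensin and kinesin genes in 29 of 30. The median log2 changes were 1.37, 1.40, 1.66, 2.47 and 2.22. The kinetochore list summed to 567 to 628 CPM in the controls and to 2420 and 2408 CPM in the knockouts, and it held 29 rises in every alternative tried. Leaving out knockout 89 left 23 rises on the replication fork list.

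Promoters of 2 mitosis genes are shown, picked from the called genes of these lists because they hold both motifs named next. They are therefore not typical of the lists. The 180 bases before the RefSeq gene start (GRCm38.p6) are printed 5′ to 3′ on the gene's strand, with CCAAT (the CCAAT box, bound by NF-Y) and TTTGAA (the cell cycle homology region, known from genes repressed in resting cells by the DREAM complex) in capitals on either strand. Mki67 lies at chr7:135716380-135716559 (minus strand) and Ccnb2 at chr9:70421555-70421734 (minus strand).
Mki67: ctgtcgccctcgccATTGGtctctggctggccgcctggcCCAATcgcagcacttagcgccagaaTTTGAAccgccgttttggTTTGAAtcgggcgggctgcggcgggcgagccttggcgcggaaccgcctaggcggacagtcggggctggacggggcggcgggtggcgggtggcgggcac
Ccnb2: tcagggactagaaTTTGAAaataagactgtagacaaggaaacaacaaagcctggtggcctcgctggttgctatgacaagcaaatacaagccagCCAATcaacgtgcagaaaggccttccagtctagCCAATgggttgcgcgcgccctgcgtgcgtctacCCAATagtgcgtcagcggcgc
Within 250 bases before the start, CCAAT was found on either strand in 31 of 43 mitosis promoters (72.1%), in 22 of 37 replication promoters (59.5%) and in 37.5% of all 27025 promoters of the table. It was not particular to genes of division, with 11 of 14 promoters of MHC class I genes (78.6%). Interferon genes held it in 46.4% and homeostatic genes in 44.0%. TTTGAA was found in 15 of 43 mitosis promoters (34.9%), in 18.9% of the replication promoters and in 18.3% of all, and the 2 motifs do not overlap in letters. A match describes these letters and is not a measured binding site.

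Mki67, a chromosome-coating protein of dividing cells, stood at 68.3, 77.4, 68.5 and 73.7 CPM in the controls and at 348 and 256 CPM in knockouts 80 and 89 (2.05 ± 0.12, edgeR, adjusted p = 3.15e-06). Ccnb2, a cyclin of mitosis, went from 11.8, 16.1, 11.8 and 15.2 CPM to 104 and 125 CPM (3.07 ± 0.18, adjusted p = 3.6e-06). The controls held a clear level of both genes, and each knockout lay several times above it. Top2a, the topoisomerase that untangles chromosomes, went from 56.4, 72.7, 59.4 and 54.6 CPM to 251 and 260 CPM (2.07 ± 0.14), and Smc4, a condensin subunit, from 47.8, 40.4, 43.7 and 46.3 CPM to 202 and 206 CPM (2.19 ± 0.12). The kinases Aurkb (2.64 ± 0.18), Aurka (2.48 ± 0.17) and Bub1 (2.27 ± 0.22) and the ubiquitin ligase gene Ube2c (3.03 ± 0.24) rose with them. Espl1 and Fzr1, which act at mitotic exit, and the condensin gene Ncaph were not called, at 0.04 ± 0.14, 0.21 ± 0.13 and 0.05 ± 0.18.

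In S phase genes, Rrm2, a subunit of the enzyme that makes deoxynucleotides, stood at 24.4, 19.7, 22.3 and 20.8 CPM in the controls and at 112 and 173 CPM in the knockouts (2.73 ± 0.20), and Tyms, thymidylate synthase, at 24.7, 27.5, 28.7 and 26.6 CPM and at 107 and 105.2 CPM (1.98 ± 0.13). Gmnn, the licensing inhibitor geminin, went from 7.22, 7.89, 7.03 and 7.72 CPM to 57.4 and 48.5 CPM (2.82 ± 0.15). Rrm2 was higher in knockout 89, and Tyms and Gmnn were close between the knockouts. All of Mcm2 to Mcm7, the replicative helicase, rose, by 0.67 ± 0.17 (Mcm3) to 1.90 ± 0.21 (Mcm5), while Pcna, the sliding clamp, rose only by 0.44 ± 0.15 and was not called when either knockout was left out. Ccnd2, a D-type cyclin, was near absent from the controls (0.0509, 0.288, 0.816 and 0.244 CPM) and stood at 39.8 and 26.5 CPM (6.55 ± 0.52). Ccnd1 was not called (0.21 ± 0.19), E2f1 (1.87 ± 0.20), E2f8 (2.70 ± 0.20), Ccna2 (2.72 ± 0.22) and Myc (1.44 ± 0.17) rose, and E2f3 (-1.0 ± 0.15) and Cdk6 (-0.61 ± 0.18) fell.

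Inhibitors of the cycle and repair genes rose too. All 7 tested inhibitors of cyclin-dependent kinases were called, 5 as higher and 2 as lower. Cdkn1a, which encodes p21, went from 21.2, 26.7, 17.9 and 20.1 CPM to 81.5 and 60.9 CPM (1.72 ± 0.17), and Cdkn2d, which encodes p19, rose by 2.99 ± 0.33, whereas Cdkn1b, which encodes p27 (-0.66 ± 0.20), and Cdkn1c, which encodes p57 (-1.97 ± 0.41), fell. Of 18 tested double-strand break repair genes 13 rose, among them H2afx (2.27 ± 0.22), and the damage kinases Atr (-0.66 ± 0.13) and Atm (-0.57 ± 0.16) fell. Of 24 tested p53 targets 10 rose and 1 fell (median 0.28). Pmaip1 (1.77 ± 0.22), Bbc3 (1.04 ± 0.24) and Fas (3.54 ± 0.46), all known in cell death, rose, and Mdm2 (0.12 ± 0.12) and Trp53 itself (-0.01 ± 0.12) were not called. Of 28 genes of the Bcl2 family and of death execution 7 rose and 5 fell, both near the shares over all genes tested. The falls included the death activators Bmf (-1.94 ± 0.22) and Bcl2l11 (-0.81 ± 0.14).

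Type I interferon genes were higher as a group. Of 36 tested genes (of 38 listed) 34 rose and none fell, with a median of 2.12. Their sum was 513 to 577 CPM in the controls, 1649 CPM in knockout 80 and 1890 CPM in knockout 89, and 31 rises were called without knockout 80 and 26 without knockout 89. Promoters of 3 of them are shown, since they carry the element through which interferon acts, the letters GAAA, any 2 bases and GAAA again, on either strand (in capitals). They cover the 180 bases before the RefSeq start (GRCm38.p6) at chr8:71537473-71537652 for Bst2 (minus strand), chr5:120907526-120907705 for Oas1a (minus strand) and chr19:34583349-34583528 for Ifit3 (plus strand).
Bst2: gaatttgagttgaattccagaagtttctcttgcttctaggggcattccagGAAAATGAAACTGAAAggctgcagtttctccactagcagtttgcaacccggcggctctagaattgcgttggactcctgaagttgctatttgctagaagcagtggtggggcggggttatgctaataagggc
Oas1a: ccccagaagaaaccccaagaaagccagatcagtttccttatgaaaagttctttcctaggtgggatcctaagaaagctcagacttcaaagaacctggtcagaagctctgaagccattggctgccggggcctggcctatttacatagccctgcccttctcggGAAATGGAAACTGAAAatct
Ifit3: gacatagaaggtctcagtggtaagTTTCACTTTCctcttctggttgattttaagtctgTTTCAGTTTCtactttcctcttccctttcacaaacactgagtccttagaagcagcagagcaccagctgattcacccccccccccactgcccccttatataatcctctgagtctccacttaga
The element was found within 250 bases before the start in 13 of the 28 interferon genes matched in the table (46.4%), in 3.46% of all 27025 promoters, in 2 of 43 mitosis promoters (4.65%) and in none of 25 promoters of homeostatic genes. It was also found in 3 of 14 promoters of MHC class I genes (21.4%) and in 1 of 37 replication promoters (2.7%). A match again describes letters only.

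Bst2, tetherin, a protein that holds virus particles on the cell surface, stood at 42.8, 37.6, 34.9 and 43.1 CPM in the controls and at 191 and 226 CPM in the knockouts (2.40 ± 0.15, edgeR, adjusted p = 4.15e-06). Oas1a, a sensor of double-stranded RNA, went from 1.37, 0.806, 0.690 and 2.03 CPM to 22 and 13.8 CPM (3.87 ± 0.38), and Ifit3 from 2.95, 1.73, 1.88 and 1.79 CPM to 10.1 and 9.82 CPM (2.24 ± 0.31). All 3 lay above every control in both knockouts. Zbp1, a sensor of left-handed nucleic acids, rose by 4.94 ± 0.27, Ifitm3, which blocks virus entry, from 1.88, 2.19, 3.95 and 2.52 CPM to 114 and 248 CPM, and the signal carriers of the pathway less, with Irf9 at 0.68 ± 0.12 and Stat2 at 0.45 ± 0.14. Mx2 (-0.25 ± 0.34) and Slfn8 (-0.14 ± 0.13) were not called.

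Antigen presentation genes rose in part. Of 11 tested class II genes 6 rose and 2 fell. H2-Aa, a chain of the class II molecule, went from 0.102, 0.403, 0.879 and 0.488 CPM to 142 and 87.9 CPM (7.95 ± 0.40), Cd74, its invariant chain, from 63.2, 66.1, 71.4 and 57.3 CPM to 601 and 374 CPM (2.89 ± 0.15), and Ciita, the master regulator of class II genes, from at most 0.569 CPM to 4.0 and 3.80 CPM (3.15 ± 0.41). All 3 were higher in knockout 80 than in knockout 89. Control 83 stood apart for H2-DMa, at 9.75 CPM against 157 to 185 CPM in the other controls and 222 and 187 CPM in the knockouts. H2-Oa (-1.43 ± 0.42) and H2-Ob (-1.23 ± 0.32), which form an inhibitor of class II loading, fell, and neither was called without knockout 89. Of 16 class I genes 8 rose and none fell, among them H2-D1 (1.61 ± 0.15), while B2m was not called (-0.01 ± 0.14). Of 13 co-stimulation genes 5 rose and 6 fell. Cd86 (-1.15 ± 0.13), Vsir (-1.31 ± 0.13) and Lag3 (-3.77 ± 0.82) were lower, and Cd48 (1.56 ± 0.11) was higher beside Cd40.

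Genes of disease-associated microglia, which are raised around plaques and in the young brain, rose in 16 of 28 and fell in 3 (median 1.39). Apoe, an apolipoprotein, stood at 1740, 1457, 1781 and 1300 CPM in the controls and at 15260 and 15150 CPM in the knockouts (3.27 ± 0.15, edgeR, adjusted p = 1.17e-06), and Axl, a receptor kinase for dying cells, at 23.4, 24.3, 19.6 and 30.6 CPM and at 504 and 468 CPM (4.31 ± 0.16). For both genes the 2 knockouts were nearly equal. Lyz2 went from 230, 175, 395.7 and 250 CPM to 8147 and 18180 CPM, and Clec7a (4.71 ± 0.34), Spp1 (3.40 ± 0.24), Igf1 (2.93 ± 0.18), Cd63 (1.48 ± 0.12) and Fth1 (1.78 ± 0.13) rose. Trem2 and the proteases Ctsd (-0.75 ± 0.12) and Ctsl (-1.65 ± 0.44) fell, and Cd68 (-0.01 ± 0.12), Lpl (0.12 ± 0.17), Cd9 (-0.14 ± 0.16) and Tyrobp were not called. Of the partners of Axl, the receptor gene Mertk (-1.46 ± 0.26) and the ligand gene Pros1 (-1.55 ± 0.21) fell and the ligand gene Gas6 was not called (-0.06 ± 0.19).

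Cytokine genes moved both ways, 9 up and 9 down of 23 tested. Il1b went from 2.39, 1.67, 2.89 and 2.93 CPM to 36.9 and 44.2 CPM (4.05 ± 0.25) and Tnf from 4.02, 6.16, 6.40 and 4.14 CPM to 20.6 and 31.9 CPM (2.35 ± 0.29), whereas Il1a went from 185, 186, 216 and 209 CPM to 79.8 and 48.1 CPM (-1.67 ± 0.17). The inflammasome sensor gene Nlrp3 (-0.85 ± 0.16) and Il18 (-0.80 ± 0.16) fell, and Casp1 (0.85 ± 0.13) rose. Chemokine genes rose in 10 of 15 and none fell. Ccl12 (2.40 ± 0.13), Ccl2 (1.98 ± 0.17) and Ccl7 (2.86 ± 0.20), which attract monocytes, Cxcl16 (2.69 ± 0.13) and Cxcl14 (8.44 ± 0.48) were higher, and Ccl3 (-0.76 ± 0.33) and Ccl4 (-0.86 ± 0.44) were not called, although both were called as lower without knockout 80. Of 13 chemokine receptor genes 5 rose, among them Ccr1 (2.06 ± 0.15) and Cxcr4 (6.24 ± 0.44), and 3 fell.

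Sensing and uptake receptors split by gene. Of 17 tested Toll-like receptor genes and partners 8 fell and 2 rose. Tlr3, which senses double-stranded RNA, went from 103, 110, 114 and 109 CPM to 26.0 and 19.9 CPM (-2.26 ± 0.14), and Tlr7, which senses single-stranded RNA, fell by 1.03 ± 0.17. Tlr8 went the other way, from 0, 0, 0.941 and 0.731 CPM to 92.9 and 113 CPM (8.08 ± 0.79), and Tlr2 rose by 0.86 ± 0.13, and 4 rises were called without knockout 80. C-type lectin and scavenger receptor genes rose in 19 of 26 tested (of 30 listed), with Msr1 from 1.98, 1.15, 2.82 and 3.25 CPM to 219 and 311 CPM (6.89 ± 0.35), and 2 fell, Mrc2 and Lrp1 (-0.71 ± 0.15). Siglec, CD300 and SIRP genes rose in 13 of 22 and fell in 6. The inhibitory receptor genes Siglecf (-3.04 ± 0.16) and Sirpa (-1.29 ± 0.13) fell, and Cd300ld (5.64 ± 0.31), Cd300lb (5.98 ± 0.52) and Siglec1 (3.67 ± 0.31) rose.

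Complement genes rose in 9 of 16 tested and fell in 5. C1qa (-0.46 ± 0.11), C1qb (-0.50 ± 0.12) and C1qc (-0.48 ± 0.13), the chains of the initiating C1q molecule, fell, although the count of falls was 2 in a fit of all groups together. C3, the central component, went from 3.46, 8.29, 8.66 and 11.6 CPM to 141 and 494 CPM (5.38 ± 0.73), and Cfp (5.41 ± 0.33) and the receptor genes C3ar1 (1.39 ± 0.11) and C5ar1 (2.10 ± 0.20) rose. Of 8 Fc gamma receptor genes 2 rose and 3 fell, with 5 falls without knockout 80 and 1 rise and no fall in the fit of all groups. Of 15 integrin genes 5 rose and 7 fell, and 8 rose without knockout 80. Itga4, the alpha-4 chain by which blood leukocytes attach to vessels, went from 1.424, 2.13, 2.13 and 2.44 CPM to 164 and 178 CPM (6.41 ± 0.20, edgeR, adjusted p = 1.07e-07), one of the smallest p-values of the comparison. Itgal (6.83 ± 0.80) rose likewise, and Itgam, which encodes CD11b, fell from 543, 528, 611 and 512 CPM to 183 and 252 CPM (-1.32 ± 0.19).

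Among metabolic genes the nuclear-encoded respiratory chain rose as a block. Of 62 genes 51 rose and none fell (median 0.89), and the list summed to 4030 to 4494 CPM in the controls and to 7131 and 7554 CPM in the knockouts. The changes were modest in size. Atp5g3, a subunit of ATP synthase, went from 109, 99.1, 91.5 and 93.7 CPM to 237 and 234 CPM (1.26 ± 0.12), and Cox5a, of cytochrome oxidase, from 25.1, 21.5, 16.8 and 19.0 CPM to 63.0 and 60.9 CPM (1.59 ± 0.17). The 8 tested mitochondrially encoded genes were not called, and here the knockouts differed, with sums of 5504 CPM in knockout 80 and 2498 CPM in knockout 89 around the controls at 3593 to 4531 CPM. All 8 were called as lower when knockout 80 was left out.

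Glycolysis genes rose in 12 of 21 and fell in 4 (median 1.19), with Ldha at 1.59 ± 0.14, Gpi1 at 2.32 ± 0.30 and Pfkp at 4.86 ± 0.53, and with falls of the hexokinase gene Hk2 (-0.89 ± 0.17) and of Slc2a5, a fructose transporter of microglia (-2.82 ± 0.46). Lipoprotein and lipid genes rose in 15 of 25 tested and fell in 3. Plin2, a lipid droplet coat protein, went from 35.5, 35.6, 41.9 and 44.0 CPM to 206 and 227 CPM (2.47 ± 0.14), and Ch25h, which makes an oxysterol, from 0, 0, 0.314 and 0.325 CPM to 53.3 and 54.7 CPM (8.52 ± 0.55). Of 22 cholesterol synthesis genes 2 rose and 1 fell, below the share over all genes, and 4 rose when control 77 or knockout 80 was left out. Without knockout 89, 1 rose and 3 fell. Of 36 tested lysosome genes 10 rose and 9 fell, among them the protease genes Ctsc (2.04 ± 0.14) and Ctsf (-1.68 ± 0.15). Rises on this list were about as frequent as over all genes tested, and falls somewhat more frequent. Of 16 iron genes 6 rose and 3 fell, and Cp, ceruloplasmin, went from 9.25, 7.71, 8.66 and 5.77 CPM to 160 and 159 CPM (4.33 ± 0.18). Of 21 immediate early genes, which respond to handling of cells, 8 fell and 4 rose. Jun went from 968, 948, 900 and 996 CPM to 317 and 263 CPM (-1.73 ± 0.11), and Fos was not called (0.31 ± 0.17).

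The 2 knockouts differed in the size of the change. The 6324 called genes were called from both knockouts together, so a shared direction among them follows from that choice, and outside them the knockouts could lie on different sides of the controls, as for the mitochondrially encoded sums. The median absolute log2 change of the called genes was 0.985 in knockout 80 and 1.17 in knockout 89, and 4245 of them lay further from the controls in knockout 89. With either knockout alone, 2515 of the rises and 1752 of the falls were still called. Knockout 89, the one with more of both targeted transcripts, had lower P2ry12, Sparc, Sall1 and Siglech and higher neutrophil genes than knockout 80. The genes with the largest excess in knockout 89 were Lrg1 (15.7 CPM in knockout 80 and 80.4 CPM in knockout 89), the eosinophil genes Epx (23.8 and 116 CPM) and Prg2 (191 and 818 CPM), Pstpip1, the neutrophil genes Cd177 (174 and 752 CPM) and Mmp9 (201 and 866 CPM), Tnfaip2, Aoah, Nfe2 and 4930438A08Rik. The genes with the largest excess in knockout 80 were Sparc, Gpr165 (142 and 19.8 CPM, against 520 to 654 CPM in the controls), Adgrg1, Crybb1, Slc2a5, Tmem44 (68.9 and 21.2 CPM), Siglech and P2ry12, which fell in both, and Kcnj10 (78.6 and 19.4 CPM) and Wdr41 (522 and 142 CPM), which rose in both. With 1 library each these differences between the knockouts have no test.

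**Figure D4:**
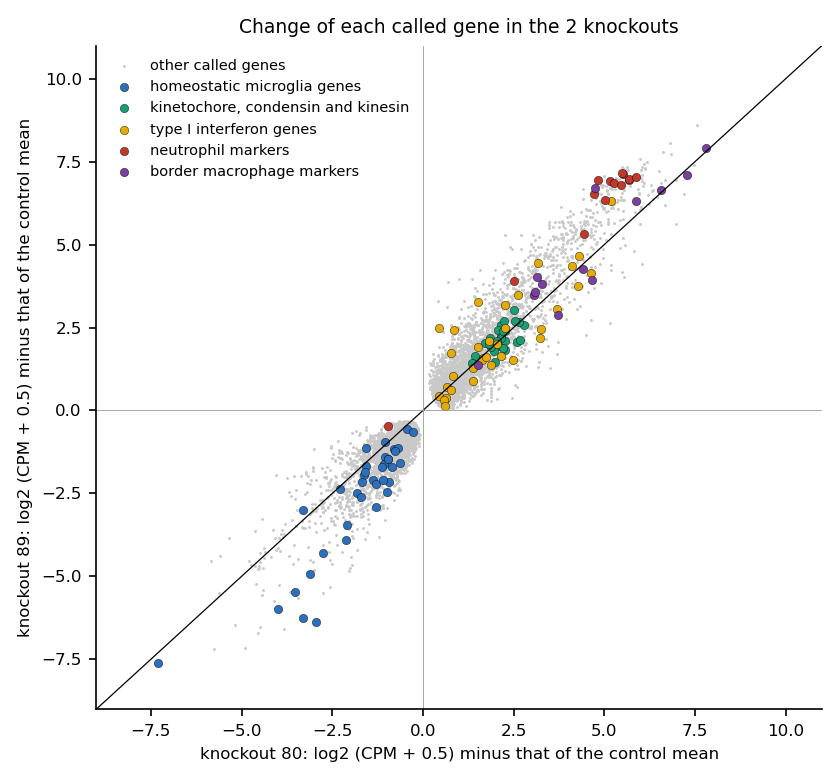
Difference of log2(CPM + 0.5) from the control mean in knockout 80 (horizontal axis) and knockout 89 (vertical axis) for each called gene, with members of 5 lists coloured. Only genes called from both knockouts together are drawn, which fixes the shared sign. Most neutrophil genes lie above the diagonal, most homeostatic genes below it, and kinetochore genes close to it.

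The effect was compared with that in the inducible model at the same age, where tamoxifen was given to the dam before birth and which has its own controls. In the inducible model 155 of 13921 genes rose (1.11%) and 158 fell (1.13%). Of 40 homeostatic genes 1 rose and 2 fell there, of 33 tested interferon genes 1 rose and 1 fell, and of 30 kinetochore genes 4 rose. Few division genes were called, but their median log2 change was 1.13 on the kinetochore list and 0.985 on the mitosis entry list. The homeostatic and interferon medians were -0.11 and -0.09. The difference between the 2 effects, tested as an interaction in edgeR, was above 0 for 2643 of 15965 genes (16.6%) and below 0 for 2343 (14.7%). It was below 0 for 37 of 40 homeostatic genes, and above 0 for 29 of 37 interferon genes, 50 of 62 respiratory chain genes, 14 of 27 replication fork genes, 9 of 30 kinetochore genes and 13 of 14 neutrophil markers. Hdac2 fell by 1.423 ± 0.10 in the inducible knockouts, and this differed from the constitutive value by 1.17 ± 0.22 (adjusted p = 0.000737), whereas Hdac1 did not pass the test (-0.14 ± 0.24, adjusted p = 0.711). The inducible controls were all female by their counts and 3 of the 4 inducible knockouts male, so sex was not balanced between the models.

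Among single genes the effects differed most surely for Sall3, which stood at 175 CPM in inducible knockouts and 161 CPM in their controls (difference -8.66 ± 0.23). Sgce, a sarcoglycan, went from 217 to 8.45 CPM in the constitutive model and from 207 to 194 CPM in the inducible one (-4.54 ± 0.17). Plxna4, a semaphorin co-receptor (-3.92 ± 0.20), Yes1, a Src-family kinase (-4.63 ± 0.25), Tet1, a DNA demethylase (-4.36 ± 0.27), and Zfp697 (-3.77 ± 0.23) likewise fell in the constitutive knockouts, with log2 changes between -0.45 and 0.28 in the inducible ones. Hspb3, near 0 in the constitutive knockouts, stood at 26.9 CPM in inducible knockouts and 38.7 CPM in their controls. Itga4 (5.88 ± 0.33), Clic4, a chloride channel protein (2.87 ± 0.16), and Plac8, a monocyte gene (5.86 ± 0.33), had the opposite sign of difference, with rises in the constitutive knockouts.

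Against birth in the same model, the effect at 2 weeks was above that at birth for 4336 of 19997 genes (21.7%) and below it for 1814 (9.07%), so 70.5% of the calls were above 0. With DESeq2's size factors in edgeR (RLE) the share was 59.1% (3345 above, 2314 below), and the median difference of all genes was -0.10 in place of 0.11. At birth itself 3942 of 18411 genes rose (21.4%) and 3726 fell (20.2%). The homeostatic list fell at both ages, with 38 of 40 genes down at birth (median -2.73). For 18 of the 40 the effect at 2 weeks was above that at birth, that is a smaller fall, and for 6 it was below. The kinetochore list was not raised at birth (1 rose and 3 fell of 30, median -0.14), and all 30 differences were above 0. Interferon genes (2 rose and 16 fell of 37 at birth), disease-associated genes (2 rose and 21 fell of 28) and border macrophage markers (1 rose and 10 fell of 14) went down at birth and up at 2 weeks, and 35 of 37, 27 of 28 and 14 of 14 differences were above 0. Markers of many other cells were also higher in the birth knockouts, and their part in these differences was not tested. They were 16 of 18 neuron, 13 of 13 astrocyte, 7 of 7 erythroid and 9 of 14 vascular markers. Of oligodendrocyte markers 7 of 14 rose and 1 fell, and 13 of 14 neutrophil and 13 of 16 monocyte markers rose.

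Apoe changed direction between the ages. It went from 9059 CPM in controls to 2018 CPM in knockouts at birth, and from 1569 to 15200 CPM at 2 weeks (difference 5.74 ± 0.25, edgeR, adjusted p = 1.91e-09). Igf1, a growth factor, went from 187 to 51.6 CPM at birth and from 13.5 to 104.8 CPM at 2 weeks (5.08 ± 0.25), and Pf4 from 419 to 318 CPM and from 2.43 to 675 CPM (8.84 ± 0.38). In these 3 genes the control level was lower at 2 weeks than at birth, and the 2-week knockout mean lay nearer to the newborn control mean than to its own. Ms4a7 (9.04 ± 0.45), Cbr2 (6.82 ± 0.35), Itga4 (5.75 ± 0.30), Cxcl16 (4.46 ± 0.22) and Axl (4.17 ± 0.19) differed in the same direction, and Sall3 (-7.45 ± 0.34) and Sgce (-3.60 ± 0.18) fell further at 2 weeks.

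Against 6 weeks in the same model, the effect at 2 weeks was above for 1591 of 16043 genes (9.92%) and below for 943 (5.88%). These counts rested on knockout 89, without which 583 and 518 were called. At 6 weeks itself 975 of 14428 genes rose (6.76%) and 756 fell (5.24%). Homeostatic genes fell in 24 of 40 at 6 weeks (median -0.63), and the effect at 2 weeks was below that for 28 of 40. Of 62 respiratory chain genes none was called at 6 weeks, and 48 differences were above 0 and 1 below. Replication fork genes rose in 1 of 27 at 6 weeks (15 differences above 0), while kinetochore genes rose in 10 of 28 and fell in 1 (11 of 30 differences above 0) and interferon genes rose in 21 of 36 (8 of 36 differences above 0). Both 6-week groups were female by their counts and both 2-week knockouts male.

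**Figure D5:**
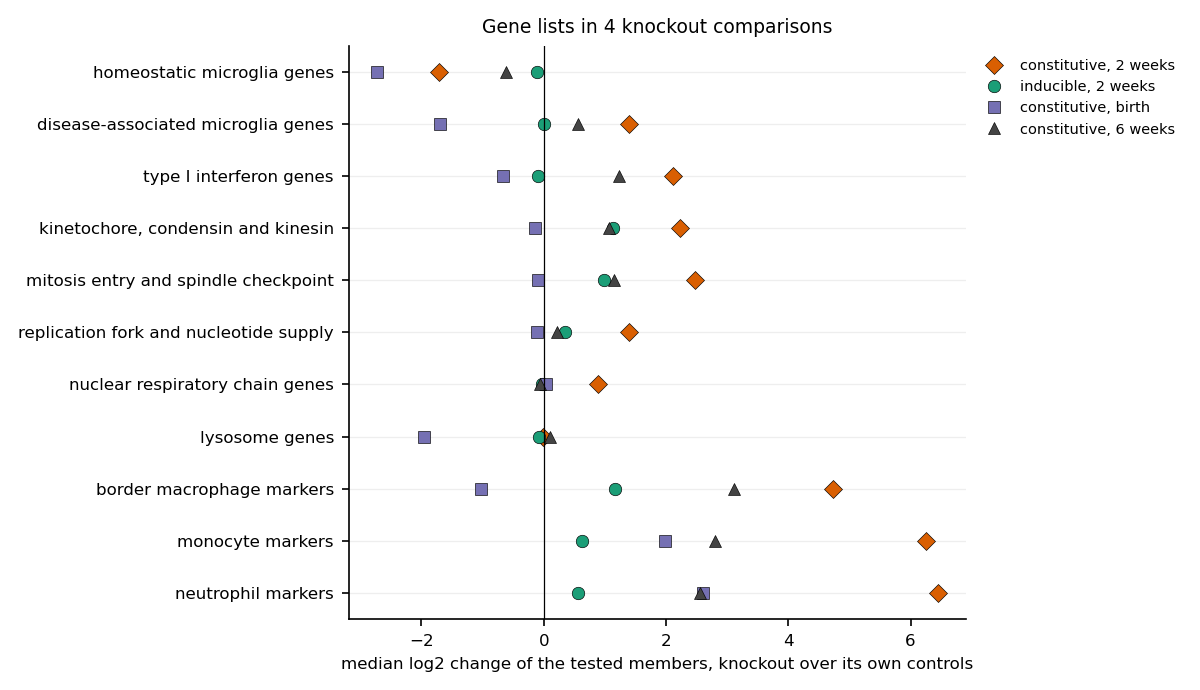
Median log2 change (knockout over control) of 11 gene lists in the constitutive model at 2 weeks, at birth and at 6 weeks and in the inducible model at 2 weeks. The homeostatic list stands at -1.71, -2.73, -0.63 and -0.11 in that order, and the interferon list at 2.12, -0.66, 1.23 and -0.09.

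The single genes that differed most surely between 2 and 6 weeks were Srgn, serglycin of secretory granules, which went from 13.5 to 207 CPM at 2 weeks and from 109 to 171 CPM at 6 weeks (3.35 ± 0.19, edgeR, adjusted p = 1.97e-07), and Nav2, a neuron navigator gene, from 335 to 13.1 CPM and from 470 to 148 CPM (-2.97 ± 0.22). Tyms, thymidylate synthase, was raised at 2 weeks and stood at 13.5 CPM in knockouts and 15.9 CPM in controls at 6 weeks (2.28 ± 0.20). S100a10 (4.18 ± 0.33), Tagln2 (3.09 ± 0.31) and the thioredoxin gene Txn1 (2.18 ± 0.22) had larger rises at 2 weeks. Plxna4 (-3.20 ± 0.26), Kcnma1 (-4.52 ± 0.43) and the collagen prolyl hydroxylase gene P3h2 (-2.12 ± 0.19) had larger falls at 2 weeks. Tmem87a (-2.08 ± 0.16) went from 91.5 to 22.5 CPM at 2 weeks and from 23.3 to 25.2 CPM at 6 weeks.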

How the data were processed

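RNA was made into cDNA with SMARTer v4 and libraries with Nextera XT, which do not mark strand, per the labels' protocols, so reads of genes that share exon bases can be mixed (104 of the 395 named genes). The authors deposited whole-number counts per gene for 50 libraries, with gene lengths in bases, per the file headers. The submitters' processing notes name CASAVA 1.8.2, STAR 2.5.2b, Subread, featureCounts 1.5.1, limma 3.28.21 and GRCm38, and the annotation release was not given in the sources used. The authors' deposited CPM and log2 tables were not used. Symbols were matched for 48058 of 48526 genes.

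Counts were fitted with edgeR 4.0.16 (quasi-likelihood, TMM, filterByExpr, R 4.3.3) within the 2-week constitutive groups, and differences between effects as interactions over 4 groups, with Benjamini-Hochberg adjustment over all genes tested and a threshold of 0.05. CPM used library totals, and RPKM the deposited lengths. Folds against a group without counts were computed from 3 counts over the group and cover counting error only. DESeq2 1.42.0, limma-voom (limma 3.58.1), other scalings and filters, a fit of all 14 groups and leaving out each library were alternatives. The fit was also tested on simulated data. These had the same spread in both groups, so that test does not cover the wider spread between the knockouts.

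The libraries compared and the 51 gene lists (985 genes, 979 in the table) were chosen with earlier results of these data known. Named genes were Hdac1, Hdac2 and Cx3cr1, the 15 largest called rises and 15 falls with at least 10 CPM and no overlap, ranked by fitted log2 change (unnamed models left out), tested list members, the 10 surest genes of each difference, and the 10 called genes of at least 50 CPM that differed most between the knockouts each way. Promoters came from a RefSeq table of GRCm38.p6. The values of some list members are not reported here.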

Additional observations from a re-analysis of the deposited data

Results flagged for a closer look

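Of the 395 named genes, 343 had at least 1 CPM in a control, and in 21 of these 1 control lay far from the other 3, its gap to the nearest being over 0.829 of the range of the 4. Chance flags about 1 in 20 groups. Control 83 was highest for Prim1 (17.96 CPM), Cdk1 (38.84 CPM), Mcm2 (63.21 CPM) and Fcrls (5604 CPM) and lowest for H2-DMa (9.75 CPM) and H2-Oa (12.51 CPM). Control 81 was lowest for Brip1 (5.46 CPM), Tgfbi (61.32 CPM) and Gas6 (278.7 CPM) and highest for Fas (3.577 CPM), Cd36 (2.95 CPM), Mog (1.82 CPM), Epx (2.259 CPM) and Smad2 (94.46 CPM). Control 78 was lowest for Smad1 (109.8 CPM) and Sin3b (91.87 CPM) and highest for Pecam1 (56.18 CPM) and Adgrg1 (1146 CPM), and control 77 was highest for Nlrc5 (3.966 CPM), C1qa (3361 CPM) and Ifit3 (2.949 CPM). Of the 21, H2-DMa, Gas6 and Smad2 were not called.

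The knockout effect at 2 weeks differed from that of another group by an interaction test in edgeR for the 10 surest genes of each comparison. Against the inducible model at 2 weeks the log2 differences were -8.662 for Sall3, -4.538 for Sgce, -3.918 for Plxna4, -4.634 for Yes1, 5.878 for Itga4, 2.868 for Clic4, 5.864 for Plac8, -8.971 for Hspb3 (which rests on 1 count in the knockouts), -3.766 for Zfp697 and -4.363 for Tet1. Against birth they were 8.842 for Pf4, 5.738 for Apoe, 4.165 for Axl, -7.448 for Sall3, 5.083 for Igf1, 4.465 for Cxcl16, -3.597 for Sgce, 6.818 for Cbr2, 9.04 for Ms4a7 and 5.747 for Itga4. Against 6 weeks they were 3.35 for Srgn, -2.967 for Nav2, -2.083 for Tmem87a, -3.202 for Plxna4, 4.185 for S100a10, 2.278 for Tyms, -2.121 for P3h2, -4.518 for Kcnma1, 2.183 for Txn1 and 3.087 for Tagln2. All 30 kept their direction and their call in every alternative run for them.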

How the results depend on the processing

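Over the alternatives of the main comparison 3021 to 4057 genes rose and 2145 to 2860 fell, and leaving out 1 library gave 3021 to 4057 rises and 2145 to 2841 falls. Without knockout 89, 583 genes lay above and 518 below 0 in the difference from 6 weeks (1591 and 943 with it), and leaving out either knockout gave 583 to 1851 above and 518 to 1272 below. DESeq2 gave 2730 genes below 0 in the difference from birth (1814 in edgeR), and the range over its alternatives was 3345 to 4336 above and 1354 to 2730 below. The difference from the inducible model held 1788 to 2960 genes above and 1823 to 2431 below 0. The cause of these shifts was not tested. Of the 395 named genes, 49 lost their call under at least 1 alternative and 10 gained one (Hdac1, Hdac2, Sall1, Nav3, P2ry6, Ccl3, Ccl4, Sin3a, Tgfbr2 and Tyrobp), and no called gene changed direction in those run. Without knockout 89 the calls of Atm, Cd177, Cdk6, Cdkn1b, Ctsl, Epx, Flt3, H2-Oa, H2-Ob, Hcst, Hdac7, Mef2c, Ngp, Pcna, Prg2, S100a9, Sin3b, Sirt1, Spi1, Stat2 and 4930438A08Rik were lost. Those of Cdk6, Cdkn1b, Epx, Flt3, Gatad2b, Gpr165, H2-Oa, Mef2c, Pcna, Prg2, Sin3b, Sirt1, Spi1, Stat2 and 4930438A08Rik were also lost without at least 1 control. Leaving out 1 knockout assumes that the other varies like the controls. No paired analysis was possible because the knockouts and controls share no replicate numbers. Low counts in the controls limit the precision of the largest rises.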
